A study of Mus musculus with 6 samples.

Results

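The adipokines are proteins that fat tissue secretes into the blood or its surroundings. RNA of 9 adipokine genes was followed in inguinal white fat: Lep (leptin), Adipoq (adiponectin), Retn (resistin), Cfd (adipsin), Rbp4 (retinol-binding protein), Nampt (visfatin), Apln (apelin), Agt (angiotensinogen) and Serpina12 (vaspin). They were chosen by name, and every probe set annotated to exactly 1 of them was taken. Of the 9 genes, 8 were measured, by 11 of the 45037 probe sets other than controls. These 8 are among 18193 measured genes, each given by its probe set of highest mean signal. Cfd was not analysed here, since the annotation used gives no probe set that name.

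The tissue came from male mice of 2 genotypes, wild type (WT) and Naa10-KO, with 3 mice and 3 Affymetrix Mouse Genome 430 2.0 arrays each. Naa10 is the catalytic subunit of an acetyltransferase that acts on protein N-termini. How the knockout was made, in which cells it acts and the strain are not given in the sources used here. Mice of both genotypes were put on a diet that drew 60% of calories from fat at 6 weeks of age, stayed on it for 15 weeks, and spent 4 h at 4 °C before the fat was taken, so no array shows these genes on normal chow or in the warm. No probe set used here carries the name Naa10, so the genotype labels were not checked against that transcript.

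Adipokines differ in what they report and whom they address. Leptin is made by adipocytes in proportion to their fat stores and acts on the brain, through the leptin receptor, to restrain feeding. Adiponectin also comes from adipocytes but falls in obesity. It raises insulin sensitivity through AdipoR1 and AdipoR2, and its large multimers are assembled in the endoplasmic reticulum by dedicated chaperones. Resistin in mice is an adipocyte product that opposes insulin action, adipsin is the complement protease factor D, and Rbp4 carries retinol in plasma. Nampt is mainly an intracellular enzyme of NAD synthesis that is also secreted. Apelin acts on a vascular receptor, as does angiotensin II, of which angiotensinogen is the precursor. Vaspin is a serpin that inhibits a kallikrein protease.

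Promoters of all 9 genes, from 250 bases before to 50 bases after the annotated start of transcription, are in the RefSeq table of assembly GRCm38.p6, in 10 entries because Rbp4 has 2. The 250 bases upstream of the start are shown for the 4 genes around which the results below are arranged: Lep and Rbp4, whose mean signals were lower in Naa10-KO fat, and Adipoq and Retn, whose signals varied together from array to array. The promoters were searched on both strands for 4 letter patterns: AGGTCA, the half-site bound by PPARγ and other nuclear receptors, CACGTG, an E-box, TATAAA, the TATA box, and TTGCNNAA, the type of site C/EBP factors bind. Matches are in capitals. Sequences run 5′ to 3′ on the strand of the gene.

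Lep, chr6:29059971-29060220, plus strand: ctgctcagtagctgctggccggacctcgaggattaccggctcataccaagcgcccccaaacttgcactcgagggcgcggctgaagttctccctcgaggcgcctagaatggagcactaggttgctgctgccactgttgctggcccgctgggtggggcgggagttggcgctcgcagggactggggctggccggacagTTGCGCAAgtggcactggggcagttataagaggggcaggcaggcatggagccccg
Rbp4, start nearer the coding sequence, chr19:38124812-38125061, minus strand: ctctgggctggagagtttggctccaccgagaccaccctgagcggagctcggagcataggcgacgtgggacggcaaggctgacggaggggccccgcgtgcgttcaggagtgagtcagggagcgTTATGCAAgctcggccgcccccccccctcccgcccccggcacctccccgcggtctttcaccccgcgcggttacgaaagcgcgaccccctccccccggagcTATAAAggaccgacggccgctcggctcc
Adipoq, chr16:23146286-23146535, plus strand: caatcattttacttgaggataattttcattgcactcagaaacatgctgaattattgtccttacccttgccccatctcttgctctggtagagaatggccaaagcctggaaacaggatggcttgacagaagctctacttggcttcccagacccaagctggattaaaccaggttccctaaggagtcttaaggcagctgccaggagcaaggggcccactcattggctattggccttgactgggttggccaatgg
Retn, chr8:3655520-3655769, plus strand: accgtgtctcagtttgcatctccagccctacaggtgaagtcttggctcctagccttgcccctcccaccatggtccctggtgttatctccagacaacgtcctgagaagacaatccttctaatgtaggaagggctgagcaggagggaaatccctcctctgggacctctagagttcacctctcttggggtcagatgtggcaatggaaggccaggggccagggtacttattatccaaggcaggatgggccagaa

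The Lep promoter holds the palindrome TTGCGCAA, whose first base lies at -55 from the start of transcription. Rbp4 has a TATA box at -28 and, at -128, TTATGCAA, which matches the C/EBP-type pattern on the opposite strand. No searched pattern occurs in the full windows of Adipoq, Retn, Cfd or Apln, nor at the second Rbp4 start. Among the promoters not shown, Agt has TATAAA at -30, Nampt AGGTCA at -151 and Serpina12 TTGCAAAA at -90. In all 32851 promoters of this length, AGGTCA occurs in 16.3%, CACGTG in 7.15%, TATAAA in 13.6% and TTGCNNAA in 10.8%, so such matches are common. They describe the letters only, since no binding was measured.

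All values are log2 signals as deposited, on which 1 unit is a factor of 2, and differences are Naa10-KO minus WT. Array medians lay between 5.78 and 5.96, and the overall median, 5.86, is used as a low-signal mark because no detection calls were used. Pairs of arrays correlated at 0.903 to 0.916. A pair of arrays stood apart in measures that recur below. Naa10-KO replicate 1 had the largest difference between the 3′ and 5′ Gapdh probe sets, 0.55 against -0.27 to 0.01 on the other 5 arrays. It also had the lowest signal of the dap and thr poly-A control RNAs, 8.38 and 5.77 against at least 8.98 and 6.53. The thr signal was not low on that array alone: each Naa10-KO array lay below every WT array. Its means were 7.15 ± 0.14 in WT and 6.38 ± 0.55 in Naa10-KO fat, a difference of -0.77. For dap the difference was -0.32 and the groups overlapped. The part of these control signals in the differences between genotypes was not tested. WT replicate 3 had a skeletal muscle signal unlike that of the other WT arrays: the mean of 22 muscle genes was 8.22 there, 5.12 and 5.78 on WT replicates 1 and 2, and 10.98 to 11.23 in Naa10-KO fat. The tissue label was checked on markers of white adipocytes. Fabp4, a fatty acid carrier, averaged 15.87 ± 0.20 in WT and 16.07 ± 0.19 in Naa10-KO fat (SD, n = 3 each), Cidec, a protein of the lipid droplet, at 14.51 ± 0.10 and 14.18 ± 0.34, and the lipase gene Lipe at 12.43 ± 0.31 and 12.01 ± 0.46. Plin1, another such marker, was not analysed here.

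No difference in an adipokine between genotypes passed the test. Of the 8 genes, 0 rose and 0 fell at an adjusted p of 0.05 (limma, Benjamini-Hochberg over all 18193 genes), and 0 had an unadjusted p under 0.05. Over all genes, 21 passed, which is 0.115%, and 9.2% had an unadjusted p under 0.05. The means of 6 adipokines were higher in Naa10-KO fat and those of Lep and Rbp4 were lower. The median of the 8 differences was 0.19, against 0.01 over all genes. Rbp4 was the 1 gene of 8 in which the 3 arrays of one genotype lay entirely on one side of the other 3, a pattern seen in 18.1% of all genes. Whole tissue was measured, so fewer cells of a type and less RNA per cell cannot be told apart.

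**Figure D1:**
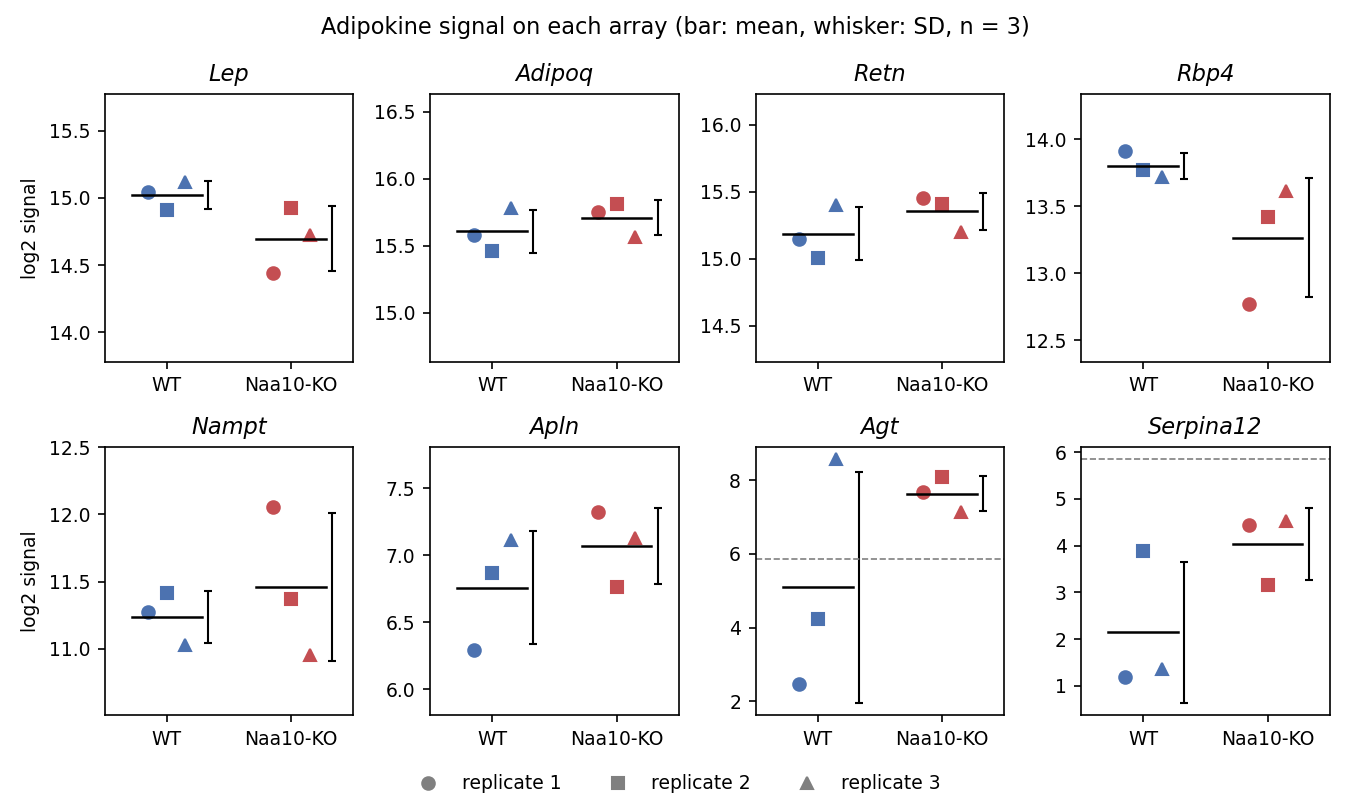
Log2 signal of the 8 measured adipokines on each array, 1 panel per gene with its own vertical scale. Points are the 3 WT and 3 Naa10-KO arrays, bars are group means with the SD as a whisker, and the dashed line is the low-signal mark. Only the Rbp4 points separate by genotype (13.72 to 13.91 in WT, 12.77 to 13.61 in Naa10-KO), and Agt spreads from 2.48 to 8.57 within WT.

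Leptin RNA was bright on every array and its mean was lower in Naa10-KO fat by an amount within the spread. Lep (probe set 1422582_at) stood at 15.05, 14.91 and 15.12 in WT replicates 1 to 3 and at 14.44, 14.92 and 14.73 in Naa10-KO replicates 1 to 3. Naa10-KO replicate 1 was the lowest of the 6 and replicate 2 lay just above WT replicate 2, so the groups overlapped. The means were 15.02 ± 0.10 and 14.70 ± 0.24 (SD, n = 3 each), a difference of -0.33 (SE 0.18, 95% interval -0.78 to 0.12, limma adjusted p = 0.614). On the linear scale the Naa10-KO to WT ratio was 0.797, with an interval of 0.583 to 1.09. The exact permutation test over the arrays gave p = 0.2 (2-sided, where 3 against 3 arrays cannot go below 0.1). Without Naa10-KO replicate 1, which stood apart in its control signals, the difference was -0.20. The means of 16 white adipocyte genes were 13.36 to 13.66 in WT and 13.26 to 13.47 in Naa10-KO fat, lowest on the same array, and their part in the leptin signal was not tested.

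Adiponectin and resistin, both adipocyte products, had signals near the top of the array's range. Adipoq (1422651_at) read 15.58, 15.46 and 15.78 in WT and 15.75, 15.81 and 15.57 in Naa10-KO fat, while the highest value on an array lay between 15.83 and 16.26. WT replicate 3 lay among the Naa10-KO arrays and Naa10-KO replicate 3 among the WT arrays. The means were 15.61 ± 0.16 and 15.71 ± 0.13 (difference 0.10, SE 0.16, 95% interval -0.30 to 0.50, limma adjusted p = 0.852, exact permutation p = 0.5), so ratios from 0.814 to 1.42 lie within the interval. Retn (1449182_at) read 15.15, 15.01 and 15.40 in WT and 15.45, 15.41 and 15.20 in Naa10-KO fat. Here too WT replicate 3 lay close to the 2 brighter Naa10-KO arrays. Its means were 15.19 ± 0.20 and 15.35 ± 0.14 (difference 0.17, SE 0.17, 95% interval -0.26 to 0.60, limma adjusted p = 0.769, exact permutation p = 0.2). Either difference depended on single WT arrays: without WT replicate 2 it was 0.03 for Adipoq and 0.08 for Retn, and without WT replicate 3 it was 0.19 and 0.27.

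The signals of Adipoq and Retn moved up and down together over the 6 arrays. Some other very bright signals moved with them, among them a control that does not come from the mice. The cre probe sets read a bacteriophage RNA that is added to every hybridization at a fixed amount. Their mean was 15.42, 15.28 and 15.59 on the WT arrays and 15.61, 15.60 and 15.54 on the Naa10-KO arrays, a difference in group means of 0.15. The adipocyte gene Fabp4, at 15.81, 15.72 and 16.09 in WT and 16.22, 16.13 and 15.85 in Naa10-KO fat, had a like profile, with WT replicate 3 among the Naa10-KO arrays. So had the highest value on each array, which was 15.93, 15.83 and 16.22 in WT and 16.26, 16.26 and 15.98 in Naa10-KO fat. Not every very bright gene had this profile. Lpl read 15.40, 15.35 and 15.65 in WT and 15.21, 15.40 and 15.16 in Naa10-KO fat. Sparc read 15.39, 15.37 and 15.58 in WT and 14.12, 15.10 and 15.13 in Naa10-KO fat. Nor did the other hybridization controls, bioB, bioC and bioD, all share the cre profile. Both bioD and bioB were highest on Naa10-KO replicate 3 (13.98 and 10.62), the lowest Naa10-KO array for Adipoq and Retn. The highest bioC signal was on WT replicate 3 (11.98). Each was lowest on WT replicate 2, as cre was. Differences in group means were 0.05 for bioD, 0.08 for bioC and 0.04 for bioB. The relation to cre was looked at after the values had been seen, so it is given as a description, with no p. Over the 6 arrays, r with cre was 0.949 for Retn (rho 1, r = 0.994 without the 2 arrays farthest from the median of cre) and 0.894 for Adipoq (rho 0.771, r = 0.915 without those 2). For Lep, r over the 6 arrays was -0.297 (rho -0.257), although within WT Lep too was lowest on replicate 2 and highest on replicate 3. Among the less bright adipokines, r with cre was 0.822 for Agt (rho 0.714) and -0.590 for Rbp4 (rho -0.886). It was 0.480 for Apln, 0.119 for Nampt and 0.024 for Serpina12. The difference between these genes in their relation to cre was not tested.

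Set against the cre signal of the same array, Adipoq differed by -0.05 and Retn by 0.02 between genotypes, and their ranges over the 6 arrays were 0.18 each. On that scale all genes shifted, with a median difference of -0.14. Relative to cre, Lep was at -0.38, -0.37 and -0.47 in WT and at -1.17, -0.68 and -0.81 in Naa10-KO fat. The Lep difference of -0.48 did not pass either (limma adjusted p = 0.552). On this scale, chosen after the values were seen, the groups did not overlap for Lep, nor for Rbp4. The cre signal itself was 0.15 higher in Naa10-KO fat, and how many of all genes separate on this scale was not counted. The part of the hybridization in these differences was not tested beyond this scaling.

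**Figure D2:**
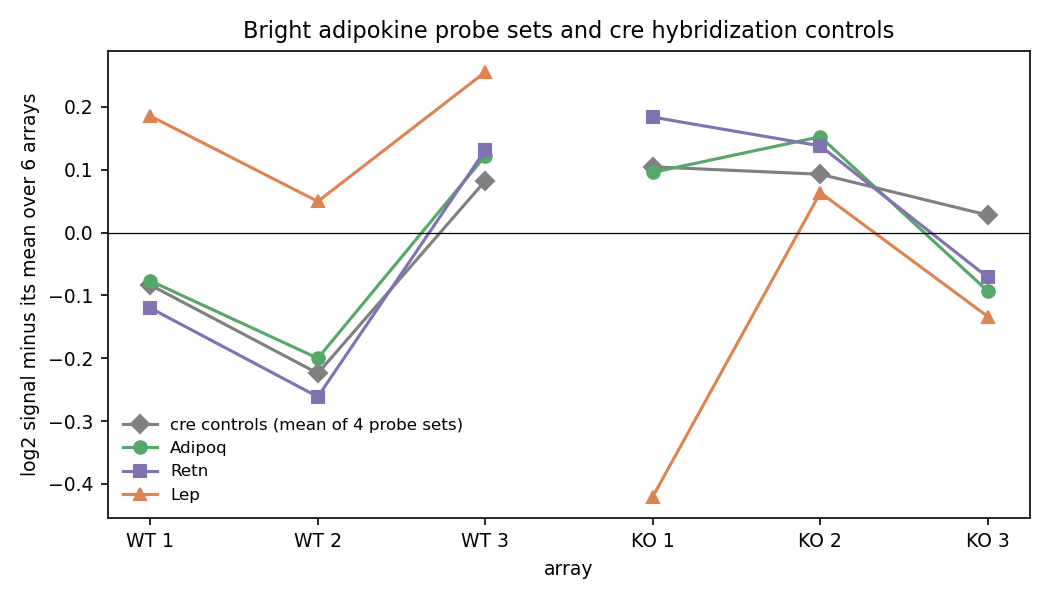
Log2 signal of Adipoq, Retn, Lep and the mean of the cre hybridization controls on each of the 6 arrays, each minus its own mean over the arrays (KO stands for Naa10-KO). Adipoq and Retn lie close to the cre control on most arrays (r = 0.894 and 0.949 over the 6). Lep shares its pattern over the WT arrays but is well below it on Naa10-KO replicate 1 (r = -0.297 over the 6).

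In the deposited signals Rbp4 was the 1 adipokine whose arrays separated by genotype, a pattern seen in 18.1% of all genes. The size of its difference, though not the separation, rested largely on 1 array. Rbp4 (1426225_at) read 13.91, 13.77 and 13.72 in WT and 12.77, 13.42 and 13.61 in Naa10-KO fat, so all Naa10-KO arrays were below all WT arrays, with Naa10-KO replicate 3 close to the lowest WT array. The means were 13.80 ± 0.10 and 13.27 ± 0.44, a 1.45-fold lower mean in Naa10-KO fat (difference -0.53, SE 0.26, 95% interval -1.18 to 0.11, limma adjusted p = 0.591). The exact permutation p was 0.1, the smallest this design allows. Without Naa10-KO replicate 1 the difference was -0.28, and relative to the cre controls it was -0.68. Plasma Rbp4 comes mostly from liver, and liver RNA was looked for. The means of 10 liver genes were 6.53 to 6.76 in WT and 6.19 to 6.75 in Naa10-KO fat. Of the 10, 0 passed and 4 had an unadjusted p under 0.05 (limma), against 9.2% of all genes. Their differences ran from -2.41 to 1.91, with 5 higher and 5 lower. In 5 of them the genotypes did not overlap, against 18.1% of all genes. On all 6 arrays 6 of the 10 were below the low-signal mark, Apoa1 and Ahsg among them. Albumin (Alb) was at 9.19 ± 0.77 and 9.61 ± 0.40. The part of liver RNA in the Rbp4 signal was not tested.

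Nampt, the NAD-synthesis enzyme, was higher in 1 Naa10-KO mouse and not in the other 2. Probe set 1417190_at read 11.27, 11.41 and 11.03 in WT and 12.05, 11.37 and 10.96 in Naa10-KO fat (means 11.24 ± 0.19 and 11.46 ± 0.55, difference 0.22, SE 0.32, 95% interval -0.57 to 1.02, limma adjusted p = 0.840). Without Naa10-KO replicate 1 the difference turned to -0.08, and without Naa10-KO replicate 3 it was 0.47. The other 2 Nampt probe sets also had their highest value on that array. For 1455320_at the values were 10.89, 10.84 and 10.67 in WT and 11.47, 10.81 and 10.63 in Naa10-KO fat, a difference of 0.17. For 1448607_at they were 7.94, 8.38 and 7.98 against 8.39, 8.08 and 7.36, a difference of -0.16, so the probe sets of this gene did not share a direction.

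Apelin, a peptide that acts on blood vessels, had signals a little above the low-signal mark and no difference past the threshold. Apln (1451038_at) read 6.29, 6.87 and 7.11 in WT and 7.32, 6.76 and 7.13 in Naa10-KO fat. The groups overlapped, with WT replicate 1 the lowest and Naa10-KO replicate 1 the highest. The means were 6.76 ± 0.42 and 7.07 ± 0.28 (difference 0.31, SE 0.28, 95% interval -0.39 to 1.02, limma adjusted p = 0.742, exact permutation p = 0.4). Without WT replicate 1 the difference was 0.08, and without WT replicate 3 it was 0.49.

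Angiotensinogen had the largest difference in means among the 8 genes and the widest spread. Agt (1423396_at) read 2.48, 4.23 and 8.57 in WT and 7.68, 8.09 and 7.13 in Naa10-KO fat. WT replicates 1 and 2 were below the low-signal mark, while WT replicate 3 was the highest of all 6 arrays. The means were 5.09 ± 3.14 and 7.63 ± 0.48 (difference 2.54, SE 1.58, 95% interval -1.45 to 6.52, limma adjusted p = 0.651, exact permutation p = 0.4). With low values raised to the mark the difference was 0.87, since much of it lies where signal is not known to be above background. Without WT replicate 3 it was 4.28 (adjusted p = 0.198), and without WT replicate 1 it was 1.23. WT replicate 3 was also the WT array nearest to Naa10-KO fat in the 22 muscle genes. Of these, 1 rose past the threshold, against 0.115% of all genes in either direction. An unadjusted p under 0.05 was found for 20, against 9.2% of all genes. Likewise 20 were higher on each Naa10-KO array than on any WT array, against 10% of all genes. Of the muscle-defining genes, Ckm was at 4.71, 5.35 and 9.25 in WT and at 12.58 to 13.54 in Naa10-KO fat, and Myh4 at 1.84, 0.99 and 8.06 against at least 11.27. Actin Acta1 was above 12 on every array. The means of 16 brown and beige adipocyte genes were 6.46 to 6.78 in WT, with WT replicate 3 the lowest, and 7.57 to 8.31 in Naa10-KO fat. Of the 16, 0 passed and 6 had an unadjusted p under 0.05 (limma), against 9.2% of all genes. On every Naa10-KO array 7 lay above all WT arrays, against 10% of all genes. The part of muscle or beige cells in the Agt signal was not tested.

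**Figure D3:**
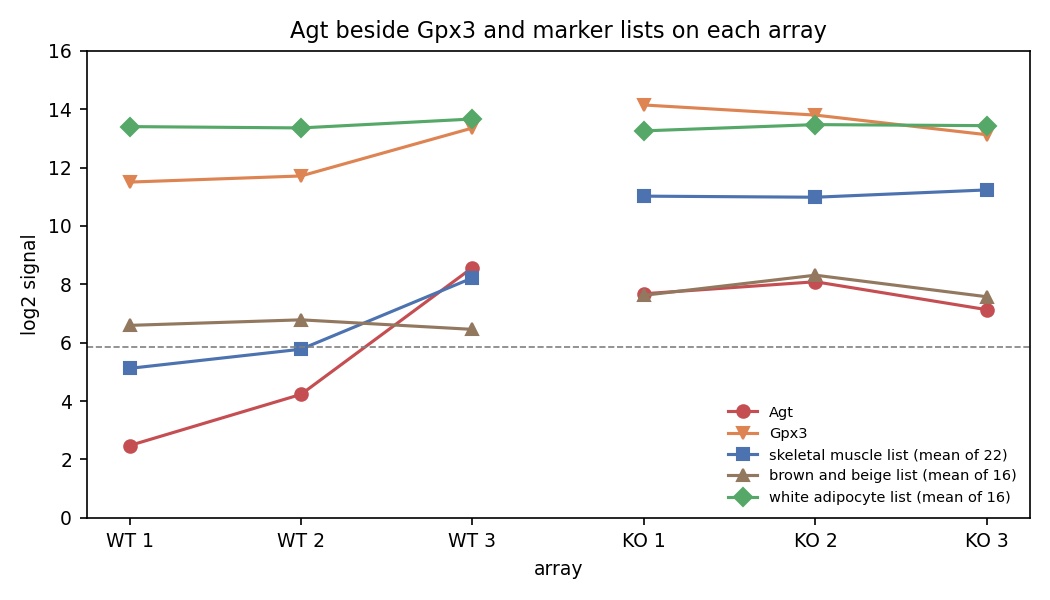
Log2 signal of Agt and of Gpx3, a secreted peroxidase, on each array beside the means of 22 skeletal muscle genes, 16 brown and beige adipocyte genes and 16 white adipocyte genes, with the low-signal mark as a dashed line (KO stands for Naa10-KO). WT replicate 3 stands at 8.57 for Agt and 8.22 for the muscle mean, apart from the other WT arrays, while its brown and beige mean of 6.46 is the lowest.

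Vaspin RNA was not measurable above the low-signal mark. Serpina12 (1421092_at) read 1.19, 3.89 and 1.35 in WT and 4.44, 3.15 and 4.52 in Naa10-KO fat, all under the mark of 5.86 (difference 1.89, SE 0.85, 95% interval -0.25 to 4.04, limma adjusted p = 0.571, exact permutation p = 0.2). A second probe set, 1421091_at, lay between 0.09 and 2.21 in WT and between 0.12 and 4.04 in Naa10-KO fat (difference 1.01). With low values raised to the mark no difference remains to be read, so the size of these log2 differences carries no level of vaspin RNA.

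Tested one by one among the 45037 probe sets, 0 of the 11 adipokine probe sets passed (limma adjusted p = 0.696 to 0.920), and 0 had an unadjusted p under 0.05. Genes with 1 probe set have no second reading on this array, which here holds for Lep, Adipoq, Retn, Rbp4, Apln and Agt.

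**Figure D4:**
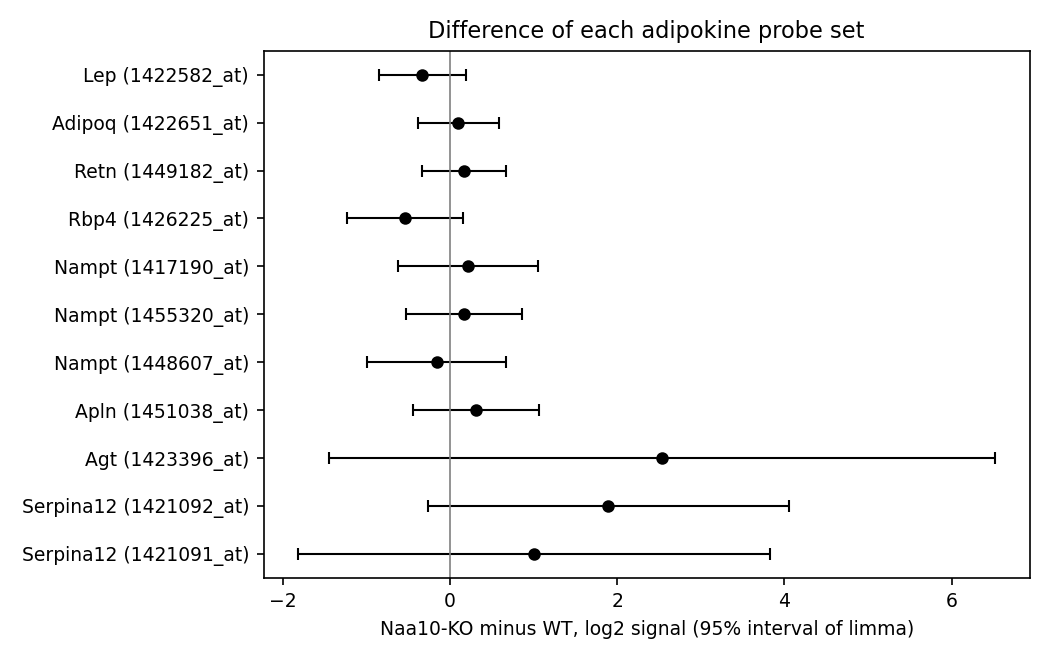
Difference in log2 signal (Naa10-KO minus WT) of each of the 11 adipokine probe sets, with limma's 95% interval from the fit over all probe sets. Every interval spans 0, those of the bright Lep, Adipoq and Retn probe sets are the narrowest, and those of Agt and Serpina12 span several log2 units.

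Among the 28 pairs of adipokines, no correlation over the 6 arrays passed adjustment, the smallest adjusted exact permutation p being 0.35. Adipoq and Retn had r = 0.968 (exact permutation p = 0.015, adjusted 0.35; rho = 0.771, p = 0.10, adjusted 0.58), and r was 0.953 without the 2 farthest arrays. Lep and Rbp4 had r = 0.864 (exact permutation p = 0.040, adjusted 0.35; rho = 0.6, p = 0.24, adjusted 0.62), which dropped to 0.482 without them. The genes most like each of the 3 bright adipokines were sought among 7970 genes that reached the low-signal mark and spanned at least 0.5 log2 units. Tmem37, Ppp1r13b and Dbn1 followed Lep with r of 0.992, 0.989 and 0.986. Chst1, Fbxo31 and Gm4285 followed Adipoq (0.995, 0.995 and 0.993), and Gm4285, Mt1 and Nr4a2 followed Retn (0.986, 0.985 and 0.985). Such values are a description: with 6 arrays, 220, 80 and 161 genes had r above 0.9 with Lep, Adipoq and Retn.

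Among the receptors through which these hormones act, the 1 gene that passed the test had a low signal in both genotypes. Of 22 measured receptors and effectors, 0 rose and 1 fell, against 0.115% of all genes past the threshold in either direction. The median difference was 0.18. An unadjusted p under 0.05 was found for 3 of them, against 9.2% of all genes. The gene that fell was Stra6l, also called Rbpr2, a retinol transporter that takes retinol from Rbp4. It read 4.26, 4.76 and 4.46 in WT and 1.46, 1.13 and 1.64 in Naa10-KO fat (means 4.49 ± 0.25 and 1.41 ± 0.26, difference -3.08, SE 0.22, limma adjusted p = 0.0408). All 6 values are below the low-signal mark, and the call was lost in each fit that left out an array (adjusted p = 0.0647 to 0.18). Stra6, the other Rbp4 receptor, was also below the mark on every array, at 2.49 ± 0.03 and 2.51 ± 0.49.

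The adiponectin receptors were bright. Adipor1 averaged 12.12 ± 0.05 in WT and 12.22 ± 0.19 in Naa10-KO fat (limma adjusted p = 0.852) and Adipor2 at 13.76 ± 0.10 and 13.98 ± 0.22 (adjusted p = 0.709), and Cdh13, which binds multimeric adiponectin on endothelium, at 8.24 ± 0.22 and 8.37 ± 0.22. The leptin receptor Lepr was at 7.36 ± 0.35 and 7.98 ± 0.87 (difference 0.62, adjusted p = 0.704), and its 4 probe sets gave differences from -1.44 to 2.32. Without Naa10-KO replicate 3 the difference was 0.29, and without Naa10-KO replicate 2 it was 1.11. The apelin receptor Aplnr read 11.47, 10.93 and 10.78 in WT and 8.94, 10.62 and 10.90 in Naa10-KO fat, with a low value on Naa10-KO replicate 1 alone (difference -0.90, adjusted p = 0.654, and -0.30 without that array). The angiotensin receptor Agtr1a was at 8.70 ± 0.14 and 9.09 ± 0.55 (difference 0.40, adjusted p = 0.706, and 0.10 without Naa10-KO replicate 1). Cap1, which binds resistin, read 8.72, 8.68 and 8.61 in WT and 6.84, 7.99 and 7.98 in Naa10-KO fat, all lower. Both of its probe sets had a lower mean (differences -1.07 and -0.90). This did not pass (limma adjusted p = 0.503), and without Naa10-KO replicate 1 the first difference was -0.69. In 5 of the 22 receptors and effectors the genotypes did not overlap, against 18.1% of all genes. The other effectors with the smallest p were Sirt1, the NAD-dependent deacetylase downstream of Nampt (difference 0.53, adjusted p = 0.501), Gpr1 (0.37), Appl1, an adaptor of adiponectin receptors (0.33, with 4 probe sets from -0.09 to 0.43), and the insulin receptor Insr (0.35), whose 3 probe sets ran from -0.43 to 0.98 and whose difference was 0.20 without Naa10-KO replicate 1.

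Proteins that process or partner the adipokines and the factors that regulate their genes had no member past the threshold. Of 17 processing and partner genes, 0 passed and 1 had an unadjusted p under 0.05 (limma), against 9.2% of all genes. Their median difference was 0.03. Those with the smallest p were Mme, the endopeptidase neprilysin (13.16 ± 0.31 in WT, 12.61 ± 0.18 in Naa10-KO fat, difference -0.55, adjusted p = 0.540), the NAD-synthesis genes Nmnat3 (0.52, with a second probe set at -0.45 and a mean over both of 0.04) and Nmnat2 (-0.53), and complement factor Cfb (-0.42), which adipsin cleaves. Of 19 regulators, 0 passed and 2 had an unadjusted p under 0.05, against 9.2% of all genes, with a median of 0.18. Pparg, the nuclear receptor that drives Adipoq and other adipocyte genes, was at 11.45 ± 0.19 and 11.61 ± 0.12 (adjusted p = 0.767). Cebpa, which acts on Lep and Adipoq, was at 12.45 ± 0.08 and 12.36 ± 0.22 (adjusted p = 0.882). Cebpd, an early adipogenic factor of the same family, read 10.03, 10.71 and 9.91 in WT and 12.04, 10.74 and 11.05 in Naa10-KO fat, all above (difference 1.06, adjusted p = 0.542, 0.68 without Naa10-KO replicate 1). In 2 of the 19 regulators the genotypes did not overlap, against 18.1% of all genes. Ebf2, a factor of brown and beige precursors, differed by 0.56 (adjusted p = 0.483), with 3 probe sets from -0.77 to 0.64, Klf15 by 0.77 (adjusted p = 0.599, 0.38 without Naa10-KO replicate 1) and Irs1 by 0.34 (0.20 without WT replicate 1).

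Among 37 other secreted factors of fat, 0 passed and 3 had an unadjusted p under 0.05 (limma), against 9.2% of all genes. The median difference was -0.09. Nrg4, a growth factor of brown and beige fat, had the smallest p, with 12.07, 12.16 and 12.17 in WT and 12.94, 12.72 and 12.74 in Naa10-KO fat. Its means were 12.13 ± 0.06 and 12.80 ± 0.12 (difference 0.67, SE 0.14, adjusted p = 0.302), and its 2 probe sets gave 0.67 and 0.59. With eBayes trend and robust options it passed (limma adjusted p = 0.0174), 1 of 37 genes there. Of 18 alternatives this was the 1 in which Nrg4 passed. Over all genes that setting had 2251 at an unadjusted p under 0.05, against 1674 in the main fit. Gpx3, a secreted glutathione peroxidase, read 11.50, 11.71 and 13.35 in WT and 14.14, 13.80 and 13.12 in Naa10-KO fat (difference 1.5, adjusted p = 0.540). As for Agt, WT replicate 3 lay with the Naa10-KO arrays. Nucb2, the precursor of nesfatin, differed by -0.36 (adjusted p = 0.532) and Ccdc3 by -0.72 (adjusted p = 0.547).

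**Figure D5:**
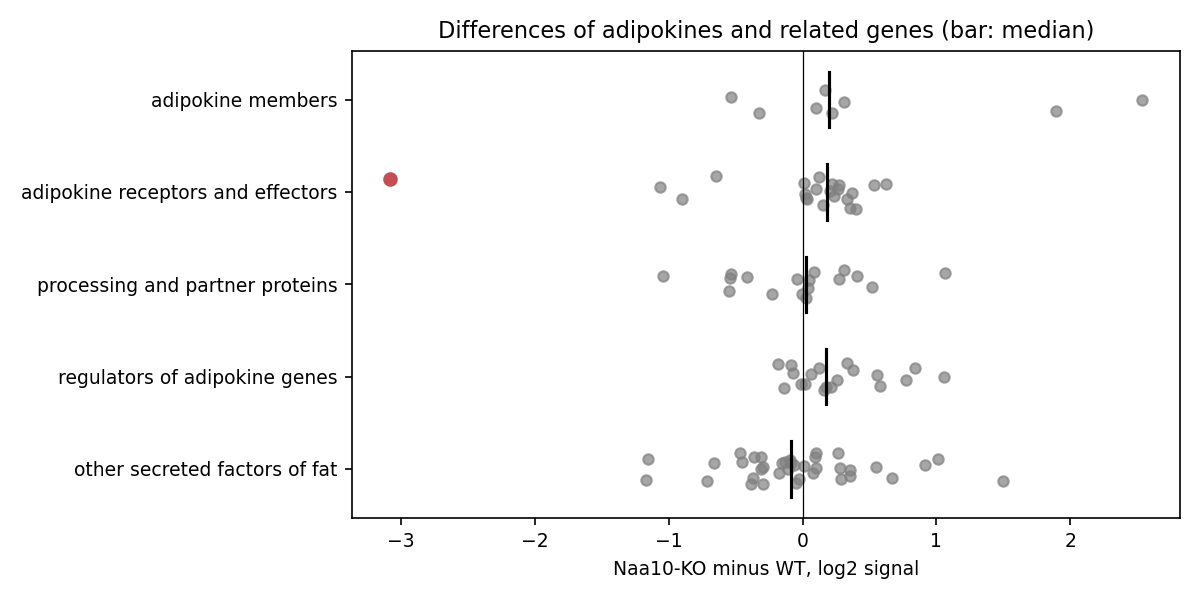
Difference in log2 signal (Naa10-KO minus WT) of each measured gene of the adipokine set and of the 4 lists around it, 1 point per gene, with the median of each as a bar and the gene past the threshold in red. The medians lie between -0.09 and 0.19, and the red point is Stra6l at -3.08.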

How the data were processed

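The authors deposited 1 log2 signal per probe set and array, for 45101 probe sets on 6 arrays. The sources used here do not name the software that made them. On the linear scale the mean after trimming 2% at each end was the same on every array, so the values had been scaled to 1 level, and they were used as deposited. Per the labels' protocols, RNA was extracted with TRIzol and RNeasy Plus columns, and 3 µg was labelled with biotin.

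Probe sets were named through GEO's platform annotation of 2016: 34945 had 1 gene, 932 several and 9160 none, besides 64 controls. Entrez identifiers of 34741 matched RefSeq (GRCm38.p6), which changed 0 symbols. Each gene was given by its probe set of highest mean. All 18193 genes were fitted with limma 3.58.1 in R 4.3.3 (lmFit, eBayes, 2-sided, genotype as the only term, 1.39 prior degrees of freedom), with Benjamini-Hochberg adjustment over all genes. SDs are over n = 3 arrays, whose number limits precision. Of the steps, the limma fit was tested on simulated data with known differences.

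The adipokines and the lists around them were chosen with earlier results of these data known. The text names every member, their main receptors, Pparg, Cebpa, up to 4 further genes per list with the smallest p, and the 3 genes most correlated with each of Lep, Adipoq and Retn. The defining markers of fat, liver and muscle are named too. Gpx3's likeness to Agt and the cre relation were noticed after values were seen. Alternatives were other normalizations, filters, a floor, probe set rules, eBayes options, array weights, a replicate block, arrays left out and another threshold.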

Additional observations from a re-analysis of the deposited data

How the results depend on the processing

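None of the 8 adipokines passed the threshold under any of the alternatives run, and 0 of the 11 probe sets passed with quantile normalization or the replicate block. Directions of Lep, Retn, Rbp4, Apln, Agt and Serpina12 held in all of them. Serpina12 could not be fitted with low genes filtered out or raised to the mark. Adipoq turned to -0.039 with quantile normalization and to -0.047 against the cre controls. Nampt ran from -0.076 (without Naa10-KO replicate 1) to 0.47 (without Naa10-KO replicate 3) with single arrays left out, and was -0.18 with WT replicate 3 and Naa10-KO replicate 1 both left out. These last 2 settings, cre scaling and the joint omission, were chosen after seeing the data. Against cre, Adipor1 turned to -0.050, Cdh13 to -0.026 and Stra6 to -0.12. With single arrays left out, Cdh13 ran from -0.0010 (without WT replicate 1) to 0.25, Stra6, under the low-signal mark, from -0.15 to 0.31 and Cebpa from -0.20 to 0.019 (without Naa10-KO replicate 1). Stra6 was -0.08 without Naa10-KO replicate 3, -0.14 with array weights and -0.16 with both arrays left out, where Cebpa was 0.052. The causes were not tested.

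Counts over all genes, 16 higher and 5 lower, were 75 and 12 after filtering out low genes, 104 and 13 after raising low values to the mark, 102 and 35 with trend and robust options, 27 higher with array weights, 3 lower with quantile normalization, 40 and 10 at an adjusted p of 0.10, and 8 and 3 against cre. They were 0 and 0 when probe sets of a gene were averaged and when both arrays were left out (1491 and 1564 genes at an unadjusted p under 0.05). Leaving out single arrays gave 0 to 29 higher and 0 to 1 lower, with 29 and 1 without WT replicate 3 and 0 otherwise (1220 to 1727 at an unadjusted p under 0.05).

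Same-numbered arrays did not deviate together (correlations -0.0067, -0.0057 and -0.031). No label ties the replicate numbers to a litter or day, and this check cannot exclude such a tie. With the replicate block 0 genes were higher and 0 lower (1276 at an unadjusted p under 0.05), no adipokine passed, and Stra6l had an adjusted p of 0.312. The Stra6l call was lost in 11 alternatives. Signals under the low-signal mark, as for Serpina12 and 2 Agt arrays, limit what can be read from their differences.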
